A study of Mus musculus with 15 samples.

Results

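The 33 genes described here code for proteins of the sarcomere, the contractile unit of striated muscle, and for smooth and skeletal muscle relatives of those proteins. They were chosen by name and found by gene identifier among the 78317 genes counted, and all 33 had enough counts to be tested. The counts come from RNA-seq of the ventricles of mouse embryos at embryonic day 11.5, strain C57BL/6, from 2 lines in which the stress response transcription factor gene Atf4 can be cut by Cre. In the line called CDS, loxP sites flank exons 2 and 3 and the polyadenylation signal is kept. In the line called PAS, loxP sites flank that signal. Xmlc2-Cre, whose transgene is driven by a heart myosin light chain promoter, restricts the cut to cardiomyocytes, so the other cells of the ventricle keep the gene. Group sizes were 4 CDS knockout, 4 CDS control, 4 PAS knockout and 3 PAS control libraries, and the labels do not say whether controls carry Cre or whether embryos were pooled. The names knockout and control are those of the labels throughout.

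In a sarcomere, thick filaments of myosin pull on thin filaments of actin, which are anchored at the Z disc, while titin spans from the Z disc to the M band. Tropomyosin and the troponin complex on the thin filament make the pull depend on calcium. Most of these proteins have several isoforms from separate genes, and the embryonic heart is known for using forms that later become restricted to atrium, slow skeletal muscle or smooth muscle before the adult forms take over.

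Total counts ran from 22623499 to 46472141 per library. The labels conflict on the material: the sample titles name heart, the design text ventricles and the extraction protocol cultured cortical neurons. The word ventricle here follows the design text, and the titles do not say whether atria were left out. The 10 ventricular cardiomyocyte markers summed to between 17030 and 21730 CPM (counts per 1000000 of the library) per library, and the 11 neuron markers to between 37.43 and 55.65 CPM. Of the genes listed as atrial markers that are not members, Gja5, Dkk3, Tbx5 and Nr2f2 had medians of 235.3, 125.9, 88.26 and 28.42 CPM. Tbx5 is also on the list of contractile gene regulators used below. Whether the listed genes mark only atrium at this age was not tested. Stard10, Kcna5, Nr2f1 and Vsnl1 had medians of only 6.64, 5.377, 4.515 and 0.888 CPM. All of these were counted in every library, whereas Sln had no count in 3 libraries and at most 0.614 CPM elsewhere. Atf4 itself was lower in CDS knockouts (39.60, 48.11, 45.33 and 45.05 CPM) than in CDS controls (113.9, 111.7, 116.4 and 115.2 CPM). It was higher in PAS knockouts (303.8, 291.9, 287.9 and 259.4 CPM) than in PAS controls (98.93, 92.17 and 100.1 CPM). The libraries labelled PAS knockout thus carried more, not fewer, Atf4 counts.

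None of the 33 sarcomere genes passed the test in either knockout. Genes were compared by edgeR's quasi-likelihood test, p-values were adjusted over 20269 genes by the Benjamini-Hochberg method, and a gene was called at an adjusted p under 0.05. In the CDS line 0 of 33 members were called, against 0.0543% of all genes tested, and 5 of 33 had an unadjusted p under 0.05, against 2.62% of all genes. Those 5 were all lower in knockouts, against 1.28% of all genes: Myl2 (-9.83%), Myh7 (-9.31%), Actc1 (-8.62%), Myl9 (-8.48%) and Actn2 (-6.95%). DESeq2 also called 0 members there, with 5 under an unadjusted p of 0.05, against 507 of the 20269 genes. By limma-voom 0 were called, with 4 under that p, against 622 genes. In the PAS line 0 of 33 were called, against 0.00987% of all genes, and only Ttn had an unadjusted p under 0.05, against 5.24% of all genes. DESeq2 and limma-voom called 0 there too, each with 1 member under an unadjusted p of 0.05, against 901 and 930 genes.

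The log2 change was negative for 30 of 33 members in the CDS line, where 50.6% of all genes were negative, and for 21 of 33 in the PAS line, where 50.6% of all genes were negative as well. The members' median log2 change was -0.06 in the CDS line, between -0.16 for Tnnt1 and 0.05 for Myl7, and the median of all genes was -0.0011. In the PAS line the members' median was -0.01, between -0.19 for Tagln and 0.16 for Myoz2, and that of all genes was -0.0015. Leaving out 1 library at a time moved the PAS median between -0.0411 and 0.0103, and it was positive without PAS control 1 (0.0082) or PAS control 2 (0.0103). The members took 5.87%, 5.78%, 5.23% and 5.88% of the counts in CDS knockouts 1 to 4. In CDS controls 1 to 4 they took 6.20%, 6.07%, 5.72% and 6.03%. PAS knockouts lay between 5.88% and 5.99% and PAS controls between 5.84% and 6.05%. CDS knockout 3 was lowest, and the CDS groups overlapped through CDS control 3. In whole ventricle, fewer cardiomyocytes and less RNA per cardiomyocyte cannot be told apart.

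Of the single libraries that the CDS pattern depended on, CDS knockout 3 weighed most. It was the lowest of its group for 27 of 33 members. Over all genes it stood apart as well: the chi-square per degree of freedom between it and the other CDS knockouts was 43.04 to 53.41, and that of all other pairs of replicates 3.11 to 12.12. Without it the members' median log2 change was -0.03 and 28 of 33 were negative. By edgeR's quasi-likelihood test 0 members then had an unadjusted p under 0.05, against 385 of all genes. The log2 change was then -0.10 for Myl2, -0.09 for Myh7, -0.09 for Actc1, -0.08 for Myl9 and -0.06 for Actn2. The same library had the lowest sum of ventricular markers, a list that holds Myl2, Myl3, Myh7, Tnnt2 and Actn2 themselves (17030 CPM, against 18900 to 20210 in the other CDS knockouts). It had the highest sum of the 11 cushion mesenchyme markers (4094 CPM, against 3304, 3651 and 3411). That of the 11 erythroid markers was highest there too (4597 CPM, against 1770, 2453 and 1699). In other groups, PAS control 2 reached 4060 CPM of cushion mesenchyme markers and CDS control 2 4279 CPM of erythroid markers. The members took 6.04% and 6.07% of the counts in these 2 libraries. The 8 choroid plexus markers summed to 167.9 CPM in CDS knockout 3 and 242.2 CPM in CDS knockout 4, whereas CDS controls had 30.26 to 67.72 CPM and the PAS libraries 10.91 to 16.47 CPM. In CDS knockout 4 that sum was mostly Ttr (154.1 CPM), which is also on the liver list, and Enpp2 (64.21 CPM). No other gene of the list exceeded 8.115 CPM in any library. The part of these other tissues in the members' change was not tested. Without CDS knockouts 3 and 4 together, the median was -0.04 and 26 of 33 members were negative. Among controls a similar spread was seen: CDS control 1 was highest of its group for 18 members and CDS control 3 lowest for 18. Without CDS control 1 the median was -0.04 and 27 of 33 members were negative. By edgeR's quasi-likelihood test 1 then had an unadjusted p under 0.05, against 380 of all genes. Without CDS control 2 these values were -0.05, 28 and 1, against 424 genes. They were -0.08, 30 and 7 without CDS control 3, against 756 genes, and -0.08, 29 and 3 without CDS control 4, against 559 genes.

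**Figure D1:**
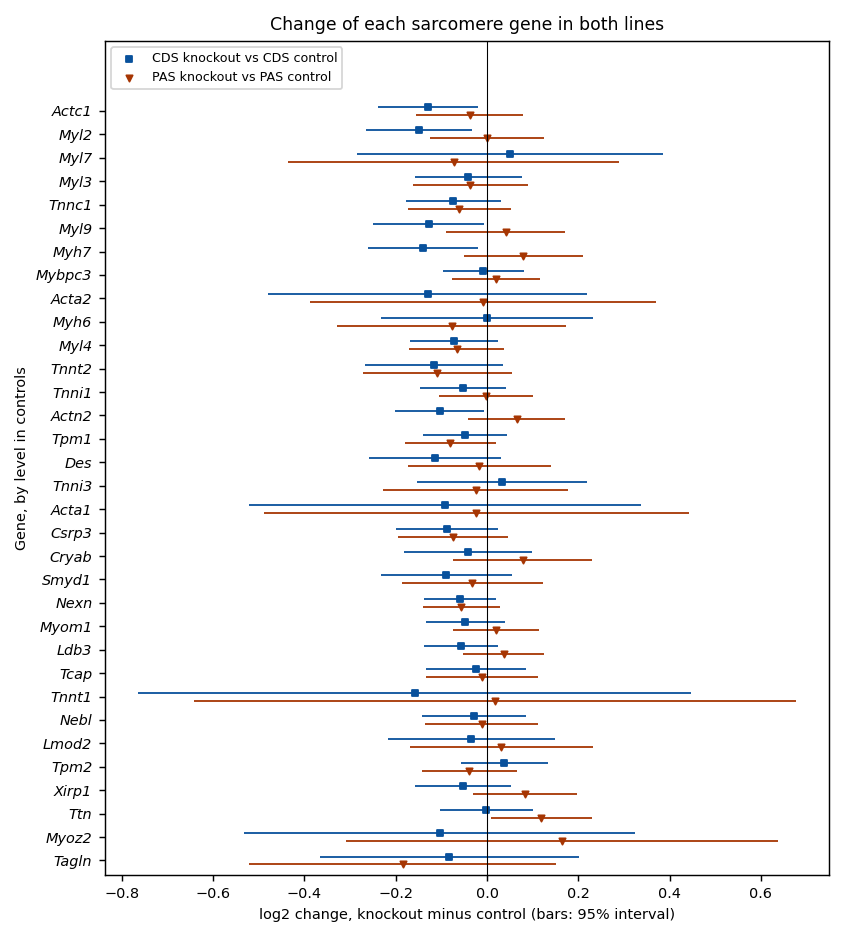
Each gene's log2 change (knockout minus control) in the CDS line (squares, 4 against 4 libraries) and the PAS line (triangles, 4 against 3), with unadjusted 95% intervals as bars. Most squares sit left of 0, where 30 of 33 CDS changes were negative, and the longest bars belong to Tnnt1, which spans -0.76 to 0.45 in the CDS line.

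Levels can be compared between genes only per length, so counts were also divided by each gene's exonic length in the files, which joins the exons of all its transcripts. In the 7 controls cardiac alpha-actin, Actc1, was highest at 6549 ± 371.6 CPM per kb (SD, n = 7), followed by the ventricular regulatory light chain Myl2 at 2431 ± 106.5 and the atrial regulatory light chain Myl7 at 1691 ± 240.1. These 3 did not overlap with each other or with the next gene over the 7 controls. Next came the ventricular essential light chain Myl3 (930.7 CPM per kb), cardiac troponin C Tnnc1 (903.4), the non-sarcomeric light chain Myl9 (800.0) and the slow myosin heavy chain Myh7 (752.7), each overlapping its neighbour. Mybpc3, Acta2, Myh6, Myl4, Tnnt2, Tnni1, Actn2 and Tpm1 followed from 657.3 down to 403.5 CPM per kb with overlap between neighbours. Des, Tnni3, Acta1, Csrp3, Cryab, Smyd1 and Nexn lay between 256.0 and 137.6 CPM per kb, and Myom1 and Ldb3 at 119.3 and 117.0. Tcap, Tnnt1, Nebl, Lmod2, Tpm2, Xirp1 and Ttn lay between 75.20 and 50.22 CPM per kb, each overlapping the next. The lowest were Myoz2 at 26.21 and Tagln at 1.75 CPM per kb, but the Tagln value is no measure of its RNA level, as set out below. This order depends on the length used, since the exonic length is 6.44 times that of the longest principal transcript for Tnnt2, 4.92 times for Myl4, 3.42 times for Tpm1 and 3.13 times for Tnni1, but 1.00 for Myl7, Lmod2, Tcap and Mybpc3.

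**Figure D2:**
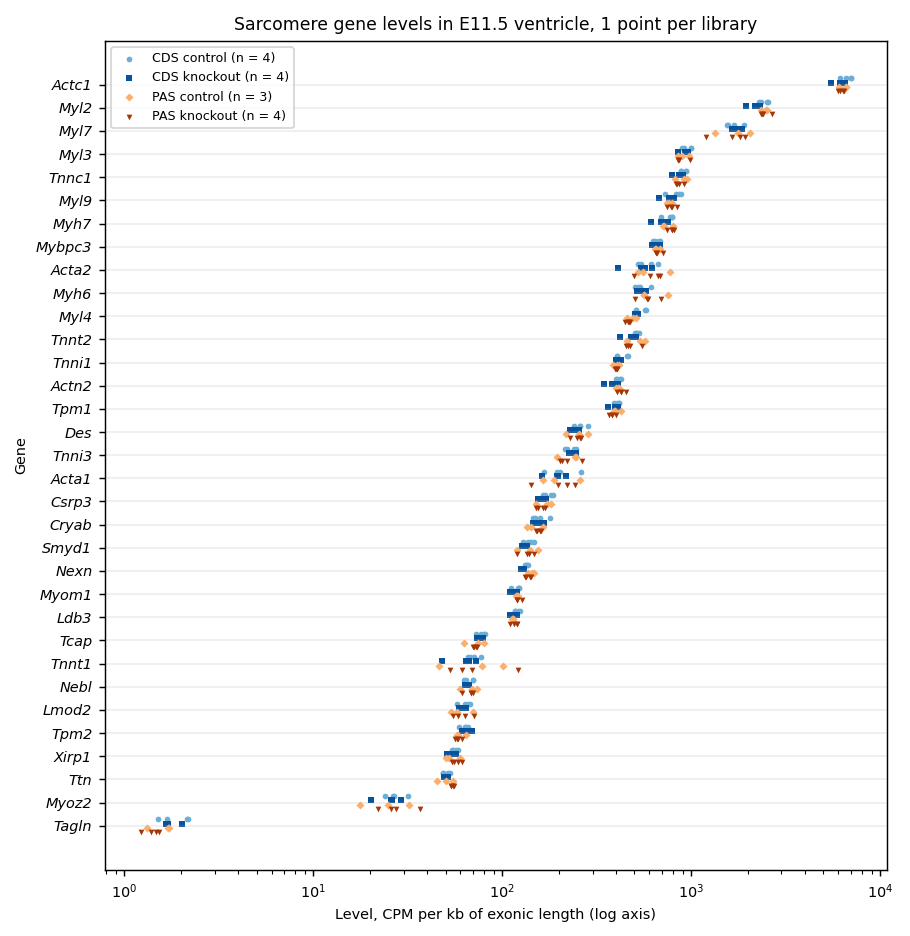
Level of each gene in every library, in CPM per kb of exonic length on a log axis, with genes ordered by their mean in the 7 controls and 1 point per library. The 4 groups lie on top of each other for nearly every gene. Values run from 6549 CPM per kb for Actc1 to 1.75 for Tagln, whose count is no measure of its RNA level.

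The thick filament's motor is the myosin heavy chain, alpha (Myh6, the adult rodent form) or beta (Myh7, the fetal ventricular and slow skeletal form). Both genes lie side by side on the minus strand of chromosome 14 in GRCm39, Myh6 at chr14:55179378-55204384 and Myh7 at chr14:55208141-55232083. Their coding sequences matched at 91.69% of aligned bases in the GENCODE transcripts used. Of the 100-base windows of Myh6, 11.42% occurred unchanged in another gene's transcript, mainly Myh7. A read lying wholly in such a window cannot be assigned by its own sequence. The counts are of read pairs, whose other read may lie elsewhere, and the share of fragments affected was not measured. The stretches below show the least alike window of 90 bases, with the bases that differ in capitals, which starts at coding base 3222 of Myh6 and 3216 of Myh7, and then the longest run the 2 genes share, 245 bases from coding base 4246 of Myh6.
Myh6: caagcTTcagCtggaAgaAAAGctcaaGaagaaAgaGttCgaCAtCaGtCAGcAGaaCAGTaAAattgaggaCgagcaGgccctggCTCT
Myh7: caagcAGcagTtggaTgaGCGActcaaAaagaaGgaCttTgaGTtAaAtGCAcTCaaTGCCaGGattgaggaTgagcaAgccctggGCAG
Myh6 and Myh7: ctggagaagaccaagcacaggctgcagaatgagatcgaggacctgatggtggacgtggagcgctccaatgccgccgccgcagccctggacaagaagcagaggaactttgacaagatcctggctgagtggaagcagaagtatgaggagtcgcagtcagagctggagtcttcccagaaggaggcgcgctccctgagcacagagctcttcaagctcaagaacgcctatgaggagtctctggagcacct
In the upper pair 33 of 90 bases differ, so reads from there tell the genes apart, whereas reads inside the shared run do not on their own.

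Myh7 was counted at 6487, 5947, 5261 and 6114 CPM in CDS knockouts and at 6841, 6810, 5978 and 6624 CPM in CDS controls. CDS knockout 3 was lowest and the groups overlapped. The log2 change was -0.14 ± 0.06 (SE; Benjamini-Hochberg adjusted p = 0.9998 in edgeR's test). Between PAS groups Myh7 overlapped too and stood at 6418, 6809, 6953 and 6789 CPM in knockouts and 6883, 6107 and 6155 CPM in controls, with a log2 change of 0.08 ± 0.06. The 2 changes differed by -0.22 (95% interval -0.40 to -0.04, adjusted p = 0.9954, edgeR). Myh6 stood at 3449, 3591, 3692 and 3891 CPM in CDS knockouts and 3501, 3383, 3605 and 4138 CPM in CDS controls, which overlapped, with a log2 change of -0.0004 ± 0.11. In PAS knockouts it stood at 4632, 3388, 3933 and 3956 CPM and in PAS controls at 3797, 5033 and 3757 CPM, with the lowest and highest values of both groups far apart.

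The Myh7 count also has a neighbour on the other strand. The long noncoding RNA gene Mhrt shares 27.31% of the exonic bases of Myh7, and the fragments were counted without regard to strand. Mhrt was counted at 138.6, 132.6, 128.2 and 113.3 CPM in CDS knockouts and at 117.2, 115.1, 117.6 and 108.6 CPM in CDS controls. With no option set for overlapping genes, featureCounts leaves out fragments that fall on exons of both. Both counts therefore miss such fragments, and levels per kb of the full exonic length are understated by an amount not measured. Of the other members, Tagln shared 67.86% of its exonic bases with other genes, Cryab 32.45%, Nexn 10.43%, Des 7.67% and Tnnt1 6.32%, and the rest at most 5.67%.

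Of the proteins that run along the thick filament, Mybpc3, cardiac myosin-binding protein C, stood at 2830, 2696, 2586 and 2755 CPM in CDS knockouts and 2834, 2804, 2619 and 2674 CPM in CDS controls, with a log2 change of -0.01 ± 0.04. Titin, Ttn, the giant spring of the sarcomere, had 6237, 6307, 6480 and 6456 CPM in PAS knockouts and 5277, 6400 and 5921 CPM in PAS controls, so the groups overlapped through PAS control 2. Its log2 change in the PAS line was 0.12 ± 0.05 (adjusted p = 0.934, edgeR) and in the CDS line -0.0019 ± 0.05. Without PAS control 1, the lowest, the PAS change was 0.05. Myom1, the M band protein myomesin, had log2 changes of -0.05 ± 0.04 and 0.02 ± 0.05.

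Myosin light chains brace the lever arm of the myosin head, as regulatory (Myl2, Myl7, Myl9) or essential (Myl3, Myl4) chains. Myl2 had the smallest unadjusted p of the members in the CDS line. It was counted at 4511, 4243, 3815 and 4488 CPM in CDS knockouts and 4926, 4954, 4451 and 4585 CPM in CDS controls, with overlap only because CDS knockouts 1 and 4 lay above CDS control 3. The log2 change was -0.15 ± 0.06 (adjusted p = 0.9998, edgeR), and it was -0.0005 ± 0.06 in the PAS line. With no filter on low counts Myl2 was called in the CDS line, with a log2 change of -0.15 and an adjusted p of 0.045 by the same test.

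Myl3 had log2 changes of -0.04 ± 0.06 in either line. The atrial and fetal essential chain Myl4 stood at 2399, 2336, 2385 and 2424 CPM in CDS knockouts and 2677, 2632, 2359 and 2369 CPM in CDS controls, where controls 1 and 2 were high and controls 3 and 4 lay among the knockouts. Its log2 changes were -0.07 ± 0.05 in both lines. PAS controls stood at 2373, 2264 and 2112 CPM, and 2 of the 3 lay below every CDS control. That difference was -0.16 ± 0.05 (adjusted p = 0.2712, edgeR). Myl9 stood at 885.0, 937.1, 784.4 and 902.7 CPM in CDS knockouts and 1006, 1023, 845.1 and 960.5 CPM in CDS controls, overlapping through CDS control 3, with a log2 change of -0.13 ± 0.06 (adjusted p = 0.9998, edgeR). Its PAS change was 0.04 ± 0.06.

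The thin filament is built of alpha-actin, and the ventricle held RNA of the cardiac (Actc1), skeletal (Acta1) and smooth muscle (Acta2) genes. Actc1 stood at 9912, 10090, 8926 and 10500 CPM in CDS knockouts and 11330, 11270, 9929 and 10620 CPM in CDS controls. CDS control 3 lay among the knockouts. The log2 change was -0.13 ± 0.05 (adjusted p = 0.9998, edgeR), and -0.04 ± 0.06 in the PAS line. Acta1 ranged from 247.8 to 334.7 CPM in CDS knockouts and from 253.8 to 399.7 CPM in CDS controls, with a log2 change of -0.09 ± 0.20. Acta2 ranged from 896.5 to 1352 CPM in CDS knockouts and 1151 to 1460 CPM in CDS controls, with a log2 change of -0.13 ± 0.16. Between PAS groups Acta1 had -0.02 ± 0.21 and Acta2 -0.0089 ± 0.17. Unlike the heavy chains, the 3 actin transcripts shared no 100-base window with another gene.

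For the 3 actins, the 250 bases before each gene's start are shown, from RefSeq on GRCm38.p6, 5′ to 3′ on the minus strand. They are chr2:114052876-114053125 for Actc1, chr8:123894776-123895025 for Acta1 and chr19:34255374-34255623 for Acta2. Whether these bases bear on the actins' levels was not tested. Capitals mark a CArG box, a site known to bind serum response factor, in its strict form with no mismatch allowed.
Actc1: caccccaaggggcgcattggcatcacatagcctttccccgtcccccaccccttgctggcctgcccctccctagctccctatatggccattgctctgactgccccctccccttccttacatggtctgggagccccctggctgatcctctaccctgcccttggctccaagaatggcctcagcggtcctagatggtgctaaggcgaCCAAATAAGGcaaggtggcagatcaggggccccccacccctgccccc
Acta1: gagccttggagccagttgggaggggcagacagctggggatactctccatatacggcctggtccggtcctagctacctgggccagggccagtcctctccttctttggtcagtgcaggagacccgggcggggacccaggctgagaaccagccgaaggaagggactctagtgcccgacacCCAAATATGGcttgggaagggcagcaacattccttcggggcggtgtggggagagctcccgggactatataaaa
Acta2: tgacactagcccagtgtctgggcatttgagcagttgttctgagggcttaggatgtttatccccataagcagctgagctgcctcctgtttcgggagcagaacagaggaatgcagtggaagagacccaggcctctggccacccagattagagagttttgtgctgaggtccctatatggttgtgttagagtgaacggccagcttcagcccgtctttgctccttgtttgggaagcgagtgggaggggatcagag
The box starts 47 bases before the start of Actc1 and 73 bases before that of Acta1, and the Acta2 window held no match to the strict form. Sites with a mismatch were not sought, so this says nothing about binding there. Windows were on hand for 28 members, all but Cryab, Nexn, Tagln, Tcap and Xirp1. A CArG box was found in 8 of the 28 (Acta1, Actc1, Ldb3, Myl3, Myl7, Myl9, Myom1 and Nebl), or 28.6%, and in 1.62% of all 27025 genes with windows of that length. A MEF2 site was found in 3 (Mybpc3, Myoz2 and Ttn), against 0.592% of all genes, and CATTCC in 10, against 14.4%. AGATAA was found in 4, against 11.4%, TATAAA on the coding strand in 2, against 8.94%, and TGATGNAA, the letters of an ATF4 and C/EBP site, in 1 (Tnnt1), against 3.91%. All but TATAAA were sought on both strands, and a TATAAA may lie within a MEF2 site.

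Troponin T ties the troponin complex to tropomyosin. The cardiac form Tnnt2 stood at 3952, 3724, 3241 and 3744 CPM in CDS knockouts and 3963, 4101, 3935 and 3886 CPM in CDS controls, with only CDS knockout 1 above the lowest control. Its log2 changes were -0.12 ± 0.07 and, for the PAS line, -0.11 ± 0.08. Tnnt1, the slow skeletal form, stood at 158.8, 146.1, 104.6 and 140.3 CPM in CDS knockouts and 144.0, 168.2, 154.2 and 147.9 CPM in CDS controls, with a log2 change of -0.16 ± 0.28. Troponin I inhibits contraction at low calcium. Its fetal and slow skeletal form Tnni1 stood at 1528, 1501, 1435 and 1513 CPM in CDS knockouts and 1656, 1637, 1448 and 1460 CPM in CDS controls, with a log2 change of -0.05 ± 0.05. The adult cardiac form Tnni3 stood at 489.4, 466.6, 506.8 and 480.0 CPM and 494.3, 508.7, 455.1 and 440.3 CPM, with 0.03 ± 0.09. Changes between PAS groups were -0.0017 ± 0.05 for Tnni1 and -0.03 ± 0.09 for Tnni3. The calcium sensor Tnnc1 had -0.07 ± 0.05 and -0.06 ± 0.05.

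The striated muscle tropomyosin Tpm1 had log2 changes of -0.05 ± 0.04 and -0.08 ± 0.05, and Tpm2, a skeletal and smooth muscle form, 0.04 ± 0.05 and -0.04 ± 0.05, in the CDS and PAS lines. Lmod2, which nucleates and lengthens thin filaments, had -0.03 ± 0.09 and 0.03 ± 0.09, and nebulette, Nebl, which binds their Z disc ends, -0.03 ± 0.06 and -0.01 ± 0.06. None of these 4 genes separated its groups.

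At the Z disc, alpha-actinin Actn2 cross-links the thin filaments. It stood at 1519, 1446, 1315 and 1555 CPM in CDS knockouts and 1620, 1541, 1524 and 1585 CPM in CDS controls, overlapping through CDS knockout 4. The log2 change was -0.10 ± 0.05 (adjusted p = 0.9998, edgeR), and 0.06 ± 0.05 in the PAS line. The 2 changes differed by -0.17 (95% interval -0.31 to -0.02, adjusted p = 0.9954, edgeR). Nexn, an actin-binding Z disc protein, was the only member whose CDS groups did not overlap, against 2.80% of all genes: 500.5, 491.0, 479.8 and 500.8 CPM in knockouts and 503.6, 515.8, 523.2 and 512.1 CPM in controls. All 4 knockouts were lower, by little, and the log2 change was -0.06 ± 0.04 (edgeR's quasi-likelihood adjusted p = 0.9998). In the PAS line, where 4.59% of all genes did not overlap, 0 members did so, and Nexn had -0.06 ± 0.04.

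For the other Z disc and filament anchors, none of which was called, changes were small. Ldb3, Csrp3, Tcap, Xirp1 and Des had CDS changes of -0.06, -0.09, -0.02, -0.05 and -0.11 and PAS changes of 0.04, -0.07, -0.01, 0.08 and -0.02, on the log2 scale, with SEs from 0.04 to 0.07. Ldb3 links alpha-actinin to signalling proteins, Csrp3 is the muscle LIM protein, Tcap caps titin, Xirp1 sits at intercalated discs, and Des, desmin, forms the intermediate filaments between Z discs. Myoz2, which binds calcineurin at the Z disc, had -0.10 ± 0.20 and 0.16 ± 0.22. Of 2 genes that tend the filaments, the small heat shock protein Cryab had -0.04 ± 0.07 and 0.08 ± 0.07, and the methyltransferase Smyd1, needed to build myofibrils, -0.09 ± 0.07 and -0.03 ± 0.07.

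Tagln, transgelin, a smooth muscle actin-binding protein, was listed at only 3.38, 3.98, 3.31 and 3.39 CPM in CDS knockouts and 4.26, 3.01, 3.32 and 4.29 CPM in CDS controls. Exons of the unnamed model Gm48529 on the other strand cover 62.43% of its exonic bases, and exons of all other genes together cover 67.86%. featureCounts leaves out fragments that fall on exons of 2 genes unless told otherwise, and the recorded command held no such option. The Tagln value is therefore no measure of its RNA level, and its log2 changes, -0.08 ± 0.14 and -0.19 ± 0.16, rest on the uncovered bases. Gm48529 itself had between 1.32 and 4.50 CPM.

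**Figure D3:**
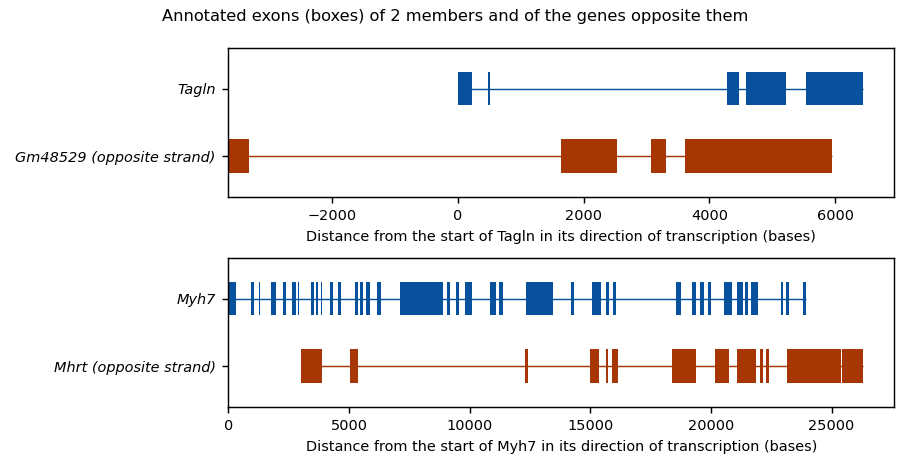
Annotated exons (boxes) of Tagln with Gm48529 opposite it, and of Myh7 with Mhrt opposite it, by distance in bases from the member's start. The exons of Gm48529 cover 62.43% of the exonic bases of Tagln, and those of Mhrt 27.31% of Myh7.

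The difference between the 2 knockout changes (CDS minus PAS) was called for 0 of 33 members by edgeR's quasi-likelihood test, against 0.00493% of all genes, with 2 (Myh7 and Actn2) under an unadjusted p of 0.05, against 4.16%. DESeq2 and limma-voom also called 0, with 2 each under an unadjusted p of 0.05, against 737 and 827 of all genes. The difference was negative for 27 of 33 members, against 49.9% of all genes, and for 20 of 33 without CDS knockout 3, where the median went from -0.06 to -0.01. Between PAS and CDS controls 0 members were called, against 0.143% of all genes, 23 of 33 were lower in PAS controls, against 48.7%, and 1 (Myl4) had an unadjusted p under 0.05, against 9.60%. DESeq2 and limma-voom called 0, with 4 each under an unadjusted p of 0.05, against 1811 and 1845 of all genes. With no filter on low counts Myl4 was called there at a log2 difference of -0.18, with an adjusted p of 0.0041. Ldb3 was the only member whose control groups did not overlap, against 9.46% of all genes, at 696.9, 693.5 and 683.6 CPM in PAS controls and 757.1, 740.1, 715.4 and 714.6 CPM in CDS controls. That difference was -0.08 ± 0.04 on the log2 scale, with an adjusted p of 0.5588 in edgeR's quasi-likelihood test.

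Isoform ratios were taken within each library as the ratio of levels per kb, for 10 pairs in 3 comparisons. The fetal troponin I exceeded the adult form in every group, with a geometric mean Tnni1/Tnni3 ratio of 1.87 in CDS controls, 1.76 in CDS knockouts, 1.77 in PAS controls and 1.80 in PAS knockouts. Slow skeletal troponin T was a small part, with Tnnt1/Tnnt2 at 0.137, 0.132, 0.138 and 0.150 in that order of groups. Myh6/Myh7 stood at 0.713, 0.788, 0.836 and 0.751, so the beta form led on average, and in every library but PAS control 2, which had 1.06 by exonic length and lay below 1 by principal transcript length. The atrial to ventricular regulatory chain ratio Myl7/Myl2 stood at 0.686, 0.791, 0.696 and 0.662. Acta1/Actc1 was between 0.0305 and 0.0316 and Acta2/Actc1 between 0.0869 and 0.0974 in all 4 groups. Tpm2/Tpm1 lay between 0.148 and 0.166, Myl9/Myl2 between 0.315 and 0.345, and Myl4/Myl3 between 0.524 and 0.571. Tagln/Actc1 was below 0.001 in all 4 groups and is no measure of RNA, as said.

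No ratio passed the test. The smallest p of the 30 exact permutation tests (two-sided) was 0.0571, for Tnni1/Tnni3 in the CDS line, where the ratio was 0.942 times that of controls (Benjamini-Hochberg adjusted p = 0.5714). Knockouts there had ratios from 1.62 to 1.84 and controls from 1.82 to 1.92, which overlap slightly. The smallest p such a test can give is 0.0286 for 4 against 4 libraries and 0.0571 for 4 against 3, so no ratio of the PAS line could have passed 0.05. After adjustment over 10 pairs, a CDS ratio could pass only if several reached that smallest p together. The level of a ratio depends on the length used. By principal transcript length, Myl4/Myl3 in CDS controls was 1.29 in place of 0.571, on the other side of 1, Tnni1/Tnni3 was 2.59 and Myh6/Myh7 0.567. Tnnt1/Tnnt2 was then 0.0451 in place of 0.137 and Tpm2/Tpm1 0.0634 in place of 0.156. Myl7/Myl2 was 0.313 in place of 0.686 and Myl9/Myl2 0.160 in place of 0.340. By exonic bases not shared with another gene, Myh6/Myh7 was 0.527 in CDS controls and 0.5829 in CDS knockouts. It was 0.6179 in PAS controls and 0.5555 in PAS knockouts.

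**Figure D4:**
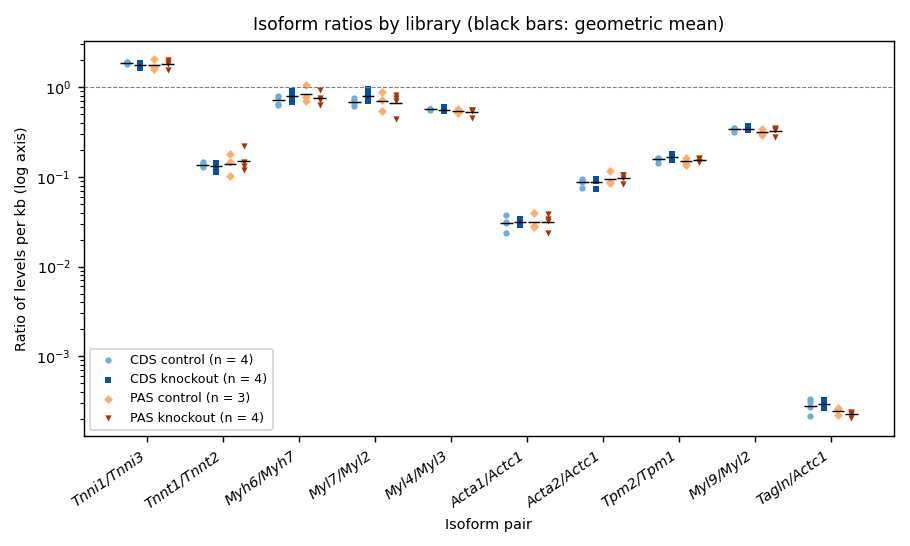
Ratio of the 2 isoforms' levels per kb (log axis) for 10 pairs, with 1 point per library and black bars at the geometric mean of each group. Knockouts and controls of the same line overlap in every pair, Tnni1/Tnni3 lies above 1, and the spread is widest for Tnnt1/Tnnt2 and Myl7/Myl2 in the PAS line.

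More than any group difference, single libraries of a group differed from each other in 5 members, which spanned over 1.5-fold within at least 1 group: Tnnt1, Myoz2, Acta1, Acta2 and Myl7. In PAS knockouts 1 to 4 Tnnt1 stood at 115.5, 263.9, 134.2 and 151.3 CPM, a span of 2.29-fold, and in PAS controls 1 to 3 at 171.5, 100.5 and 220.7 CPM, a span of 2.196-fold. PAS knockout 2 and PAS control 3 were high. Myoz2 was high in the same libraries, at 75.31, 124.9, 88.03 and 93.09 CPM in knockouts and 84.82, 60.50 and 110.2 CPM in controls.

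The same 2 libraries were the lowest of their groups for Acta1, Acta2, Myl7 and Myh6. Myl7 stood at 1130, 702.5, 1061 and 968.9 CPM in PAS knockouts and 1047, 1209 and 791.5 CPM in PAS controls. Acta1 stood at 335.6, 217.8, 372.0 and 303.8 CPM in PAS knockouts and 287.4, 396.0 and 253.3 CPM in PAS controls. Acta2 stood at 1490, 1089, 1462 and 1320 CPM and at 1213, 1683 and 1150 CPM. PAS control 2 was at the other end for all 6 genes: it had the lowest Tnnt1 and Myoz2 and the highest Acta1, Acta2, Myl7 and Myh6 of its group. Such extremes were not particular to these 6 genes. Over the 33 members, PAS knockout 2 was highest of its group for 12 and lowest for 13. PAS control 3 was highest for 6 and lowest for 17, and PAS control 2 highest for 15 and lowest for 13. PAS knockout 2 and PAS control 3 also had the lowest sums of their groups for the markers of epicardium (392.6 and 386.0 CPM, others 448.3 to 481.7), of endothelium and endocardium (2045 and 1876 CPM, others 2079 to 2202) and of skeletal muscle (146.7 and 135.0 CPM, others 177.6 to 204.6). The atrial marker sum was lowest there too (3277 and 3377 CPM), but it is made up mostly of Myl7 and Myl4. Nr2f2, Nr2f1, Vsnl1 and Sln of that list had their highest values of all libraries in PAS control 3 (38.70, 6.662, 2.893 and 0.6136 CPM). Gja5, Dkk3, Tbx5, Stard10 and Kcna5 had theirs in other libraries. The skeletal muscle sum was in turn mostly Myl1, whose median over all libraries was 134.9 CPM. Myod1, Myf5, Myf6, Pax3 and Pax7 of that list had at most 10 counts each in total. The part of these cell types in the pattern was not tested.

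**Figure D5:**
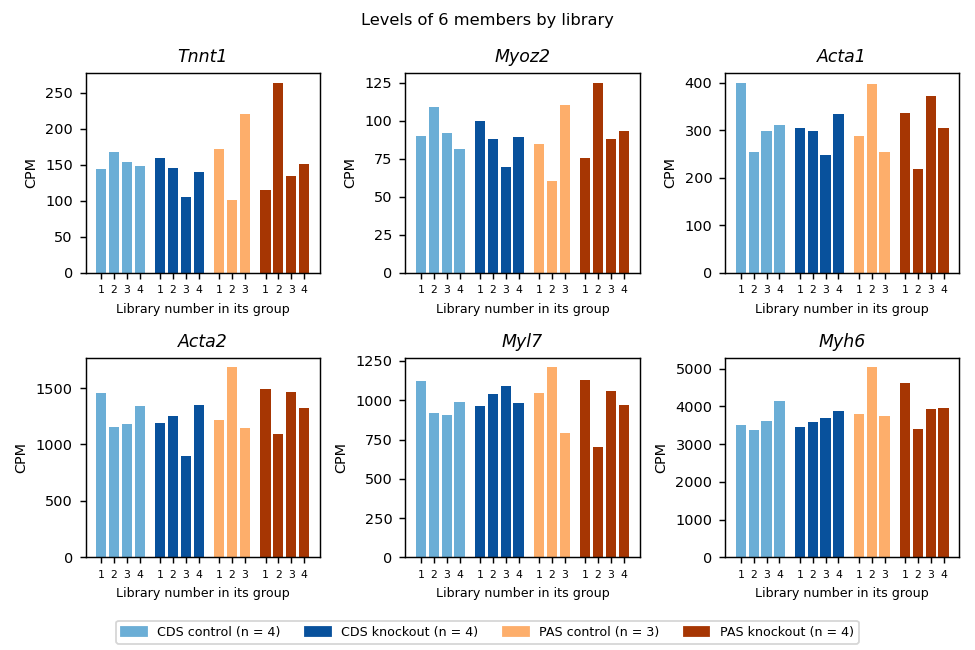
CPM of 6 members in every library, as bars from 0, numbered within each group. In the PAS line, PAS knockout 2 and PAS control 3 have the tallest bars for Tnnt1 (263.9 and 220.7 CPM) and Myoz2 and the shortest of their groups for the other 4 genes.

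The other genes of the contractile apparatus were read from fixed lists, and 0 members of any list were called in any comparison by edgeR's quasi-likelihood test. In the CDS line 0 to 1 members of each list had an unadjusted p under 0.05, against 2.62% of all genes. In the PAS line 0 to 2 did, against 5.24%. Of 22 fast and developmental skeletal muscle genes, 14 had enough counts, with median log2 changes of -0.07 (CDS) and -0.04 (PAS). The most abundant were Casq1, a calcium store protein (185.3 CPM in controls), and Myh7b, a slow heavy chain relative (175.2 CPM), and Myl1 stood at 135.2 CPM. Of the skeletal muscle regulators, Myod1, Myf5, Myf6, Pax3 and Pax7 had at most 10 counts each over all 15 libraries, and Myog had 63. Of 13 smooth muscle genes, the most abundant were Myl6 (496.9 CPM) and Csrp1 (387.4 CPM), and calponin, Cnn1, stood at 264.6 CPM, whereas the smooth muscle heavy chain Myh11 stood at 1.07 CPM. Their medians were -0.03 (CDS) and -0.04 (PAS).

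All 7 other cardiac thick and thin filament genes had negative changes in the CDS line, with a median of -0.05, and 2 of 7 did in the PAS line, with a median of 0.02. Mylk3, the cardiac light chain kinase, led them at 418.7 CPM with -0.07 ± 0.05 in the CDS line, before Tpm3 at 262.8 CPM with -0.0003 ± 0.05. Of 12 sarcomere assembly chaperones, 11 were negative in the CDS line (median -0.07) and 4 in the PAS line (median 0.01). Hspb7 (896.7 CPM) had -0.09 ± 0.05 and Hsp90aa1 (569.0 CPM) -0.04 ± 0.04 in the CDS line. The 18 other Z disc genes, led by Sorbs2 (923.4 CPM) and Flnc (797.4 CPM), were evenly split, 9 positive and 9 negative, with a CDS median of 0.0015. The 9 M band and kinase genes, among them Trim55 (443.6 CPM), had a CDS median of 0.02. The 15 regulators of contractile genes, led by Tbx20 (572.3 CPM) and Tead1 (456.9 CPM), had a CDS median of 0.0025 and a PAS median of -0.0034.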

How the data were processed

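The deposited tables give raw counts of fragments for each gene. Per the file headers, they were made by featureCounts 2.1.1 on read pairs, using the exons of mouse GENCODE release 37 on GRCm39, and no option for strand or for overlapping genes was set. The submitters' processing notes list HISAT2 2.2.1 and STAR 2.7.11b without saying which was used. The labels also conflict on library type: the design text names stranded poly(A) libraries and the extraction protocol ribosomal RNA depletion. Symbols were matched by identifier, 51487 of 78317.

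Genes were kept by filterByExpr (minimum count 10), scaled by TMM (factors 0.986 to 1.01), and fitted in 1 model over 15 libraries with 11 residual degrees of freedom in edgeR 4.0.16 (R 4.3.3), by its quasi-likelihood test with Benjamini-Hochberg adjustment. SEs were derived from the F statistic. The common biological coefficient of variation over all genes was 7.44%. Depth limits precision little at the counts of most members, but Tagln had only 60 to 199 counts per library. Isoform ratios (pseudocount 0.5) were tested by exact two-sided permutation over libraries. The tests were also run on simulated data. The design text calls the replicates biological. None was merged: chi-square per degree of freedom over 21 replicate pairs was at least 3.11. Alternatives used DESeq2 1.42.0, limma 3.58.1, other filters, scalings and left-out libraries. Windows of transcripts and coding sequences came from GENCODE release 21 (GRCm38), used without coordinates.

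All 33 members were reported, with full values for isoform pairs and members whose groups did not overlap. From each list the 2 most abundant genes were named where none was called, except 1 gene that is not reported here. Myl1, Cnn1, Myh11, the atrial markers, Mhrt, Gm48529 and the skeletal muscle regulators were named after their values were seen. The members and lists were chosen with earlier results of these data known.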

Additional observations from a re-analysis of the deposited data

Results flagged for a closer look

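In 129 groups of 4 libraries (99 of single members and 30 of ratios), 6 had 1 library far from the other 3, by Dixon's test at its 95% level. Chance flags about 1 in 20 such groups, so 6 in 129 is no more than chance alone would flag. PAS knockout 2 was high for 4 thick filament and M band genes: Myl2 at 5222 CPM (others 4532 to 4649), Myl3 at 2003 CPM (others 1733 to 1755), Mybpc3 at 2952 CPM (others 2708 to 2742) and Myom1 at 1334 CPM (others 1243 to 1251). It is the library that was also highest for Tnnt1 and Myoz2. Tagln stood at 3.98 CPM in CDS knockout 2, where the others had 3.31 to 3.39 CPM, on the bases of that gene that no other gene covers. The Tpm2/Tpm1 ratio was 0.143 in CDS control 2, below the 0.160 to 0.163 of the other CDS controls. No member's knockout change differed between the lines after adjustment, whereas that of Atf4, the targeted gene, did, by -2.92 on the log2 scale (CDS minus PAS), tested as an interaction in edgeR.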

How the results depend on the processing

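Of 2178 member values under the alternatives, 2176 kept their side of the threshold. The exceptions were Myl2 in the CDS line and Myl4 between controls, both called with no filter on low counts, which made 1 member called in each of these comparisons. That setting also called 31 genes in the CDS line, 7 in the PAS line, 3 for the difference and 201 between controls, in place of 11, 2, 1 and 29, and the cause was not tested. DESeq2 called 20, 7, 2 and 101 genes and limma-voom 2 for the difference. A fit of only the groups compared called 1 gene in the PAS line and 10 between controls, with fewer libraries to estimate the spread. It has no form of its own for the difference, which uses all 4 groups. Leaving out 1 library at a time, the members' median log2 difference of the 2 changes ran from -0.0814 to -0.0104 (the latter without CDS knockout 3), with 1 to 2 genes called (2 without CDS knockout 4 or PAS knockout 4). Between controls 15 to 43 genes were called, 15 without PAS control 1. The CDS median ran from -0.08 to -0.03, and 0 members were called in any of these fits.

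With the replicate number as a block, 12, 2, 1 and 23 genes and 0 members were called, and the members' medians were -0.06, -0.02, -0.05 and -0.03 in the CDS line, the PAS line, the difference and the controls. Same-numbered knockouts and controls did not deviate together (correlations from -0.04 to 0.06 in the CDS line and -0.20 to 0.03 in the PAS line), so the numbers were not taken as pairs. For the isoform ratios, 2 length scalings were added after seeing the data, and they move the level of a ratio but cannot change its test.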
